A study of Mus musculus with 3 samples.

Results

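The genes described here are the mouse vacuolar protein sorting (Vps) genes and sorting nexin (Snx) genes. A gene was taken when its symbol was Vps or Snx followed by a number, for Vps genes also with a closing letter, and when at least 1 of its transcripts was annotated as protein_coding. This rule found 64 genes, 34 Vps and 30 Snx, among 55536 annotated genes, of which 22028 were protein-coding. RNA of the chromatin fraction was sequenced after removal of ribosomal RNA, from macrophages grown out of C57BL/6J mouse bone marrow. Every library came from cells that had been given Lipid A, the TLR4-activating part of bacterial lipopolysaccharide, at 100 ng/ml for 12 h, kept without it for 12 h and then given 100 ng/ml again for 15 min. There was 1 group of 3 libraries (replicates 1, 2 and 3), and untreated or singly stimulated cells were not analysed here, so no level below can be read as a response to Lipid A. The labels name 1 donor for all 3 libraries and do not say whether separate animals were used, so the spread between libraries may be partly technical.

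Vps genes were first found in yeast mutants that failed to send proteins to the vacuole, the yeast counterpart of the lysosome. Their products form complexes that tether membranes before fusion (HOPS, CORVET, GARP, EARP), that retrieve cargo from endosomes (retromer, retriever), and that sort ubiquitin-tagged cargo into vesicles inside the endosome (the ESCRT complexes). Sorting nexins carry a PX domain, which in many of them binds phosphoinositide lipids of endosomes, and many shape membrane through a BAR domain or bind cargo through a FERM domain. Macrophages depend on these routes to mature phagosomes, to degrade what they take up and to recycle receptors.

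Replicates 1, 2 and 3 were made from 1000, 250 and 500 ng of RNA, and they held 14609979, 17423948 and 24162551 expected counts. Counts of the 64 genes made up 0.521, 0.559 and 0.535% of these. All 8 macrophage markers were present, from 35.4 TPM (a length-corrected share of all transcripts, scaled to a fixed total) for Itgam to 329.6 TPM for Adgre1. Of 26 markers of neutrophils, lymphocytes, dendritic, stromal, erythroid and mast cells, 2 reached 1 TPM (Cd4 at 9.30 and Zbtb46 at 1.58 TPM), and the levels of the 26 summed to between 10.7 and 17.8 TPM per library, against 869 to 978 TPM for the macrophage list. Elane, Cd3e, Pdgfra and Hba-a1 were at 0 TPM on average. In the read-based tables, a second quantification of the same libraries, 10 of the 26 reached 1 TPM, led by Cd3d at 15.2 TPM (0.017 TPM in the alignment-based tables) and Cd4 at 11.2 TPM, and the 26 summed to 43.7, 49.0 and 54.4 TPM. Levels below are TPM from the alignment-based gene tables unless the read-based ones are named.

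Nearly all of the family was present in chromatin RNA. A mean of 1 TPM or more was found for 62 of the 64 (96.9%), against 48.4% of all protein-coding genes, and 52 reached 10 TPM, against 26.4%. The read-based tables also placed 62 at or above 1 TPM, against 59.6% of protein-coding genes. The median level of the 64 genes was 4.72 ± 0.03 (log2(TPM + 1), SD over libraries, n = 3). Among genes that reached 1 TPM, the median level on that scale was 4.77 ± 0.06 for the 62 members and 3.66 ± 0.03 for all protein-coding genes. Vps and Snx genes had median levels of 4.82 ± 0.07 and 4.60 ± 0.03. In bulk RNA, fewer cells that make a transcript and less of it per cell cannot be told apart.

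The other 2 genes were not detectable at this depth. Vps37d, an alternative ESCRT-I subunit, had 0 expected counts in each library. Snx31, a relative of the cargo adaptor Snx17, had 0, 1 and 0 expected counts. A count of 0 allows a share of up to 2.05e-05, 1.72e-05 and 1.24e-05% of the counts of replicates 1, 2 and 3, and this limit covers counting error only. The read-based tables gave Snx31 0.15, 0.38 and 0.28 TPM and Vps37d 0.05, 0.14 and 0.07 TPM, also under 1 TPM in every library.

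**Figure D1:**
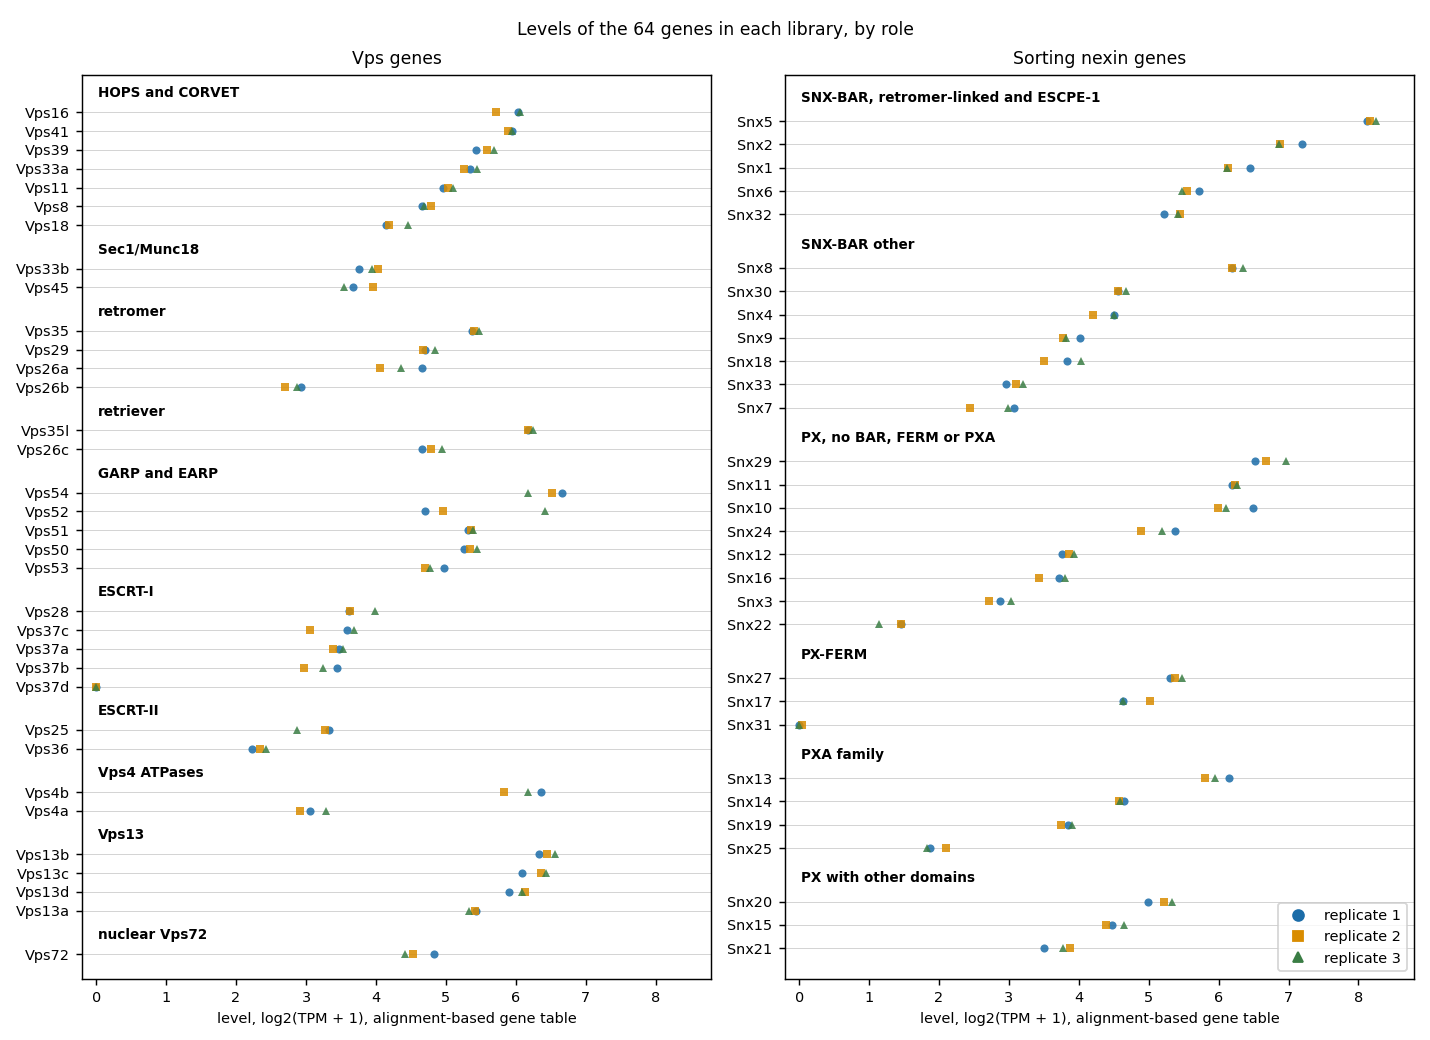
Level of each of the 64 genes, as log2(TPM + 1), with 1 point per library, grouped by the complex or domain type of the product; Vps genes are on the left and sorting nexins on the right. Snx5 stands highest in every library, Vps37d and Snx31 lie at or next to 0, and Vps52 is the gene whose libraries lie farthest apart.

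In ESCPE-1, a membrane coat, Snx1 or Snx2 pairs with Snx5 or Snx6, and Snx5 and Snx2 had the highest mean levels of all 64 genes, while Snx1 was at rank 8 and Snx6 at rank 17. Snx5 (chr2:144250123-144270906, minus strand, mm10) was at 277, 285 and 304 TPM in replicates 1, 2 and 3. It lay above every other member in every library. Snx2 followed at 145, 116 and 116 TPM, and Snx1 had 86.2, 69.2 and 68.5 TPM. Both were highest in replicate 1, and every Snx2 value lay above every Snx1 value. Snx6 had 51.8, 45.7 and 43.5 TPM, and Snx32, a close relative of Snx5 and Snx6, had 36.3, 42.4 and 41.7 TPM. The order of these 5 genes by mean, from Snx5 through Snx2, Snx1 and Snx6 to Snx32, was also the order in each library.

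Introns of Snx5 hold 2 small nucleolar RNA genes on the same strand, Snord17 and Gm26165. Their own rows in the gene tables read 2912, 3559 and 2858 TPM for Snord17 and 2120, 2744 and 2181 TPM for Gm26165, and neither shared exon bases with Snx5. Most of the Snx5 signal itself lay outside its protein_coding transcripts. In the read-based tables these held 11.6 ± 1.0% of its TPM (SD, n = 3), and processed_transcript isoforms, which carry no annotated reading frame, held 88.4 ± 1.0%. Snx5-204, a processed transcript of 350 nt, had 125, 115 and 114 TPM in those tables and 78.1, 57.6 and 72.3 TPM in the alignment-based ones. Snx5-207, of 306 nt, had 82.1, 129.6 and 115 TPM in the read-based tables and 2.93, 6.20 and 3.07 TPM in the alignment-based ones, so the isoform make-up of Snx5 depended on the quantification. The main protein_coding isoform, Snx5-201, was close in both, with 51.9, 41.8 and 51.7 TPM read-based and 52.6, 39.4 and 50.4 TPM alignment-based.

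The other BAR-domain sorting nexins spanned a 12.0-fold range of mean TPM. Snx8, which acts in endosome-to-Golgi transport, led with 72.0, 72.0 and 80.3 TPM. Snx4, which pairs with Snx7 or Snx30, had a mean of 20.3 ± 2.4 TPM, and Snx30 had 23.2 ± 1.1 TPM. Snx7 was lower, and lowest in replicate 2, with 7.37, 4.44 and 6.91 TPM. Among the SH3-domain members, which act in endocytosis, Snx9 had 13.6 ± 1.3 TPM, Snx18 had 13.2, 10.3 and 15.3 TPM, and Snx33 had 7.51 ± 0.73 TPM. The values of Snx9 and Snx18 overlapped, and both lay above those of Snx33 in every library.

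Sorting nexins with a PX domain and no BAR, FERM or PXA domain held both high and low members. Snx29 (chr16:11322908-11755472, plus strand), a RUN-domain member and a gene of 432565 bp, had 90.4, 101 and 124 TPM. Snx11 had 72.3, 74.2 and 75.4 TPM, among the smallest spreads of the family. Snx10, known for a role in osteoclasts and in acidification, had 88.7, 62.4 and 67.7 TPM. Snx29 lay above Snx11 and Snx10 in every library. Snx24 followed at 34.9 ± 6.0 TPM, then Snx12 at 13.4 ± 0.9, Snx16 at 11.6 ± 1.6 and Snx3, a retromer cargo partner, at 6.37 ± 0.81 TPM. Snx22 was the lowest detected member, with 1.75, 1.73 and 1.20 TPM. Its exons overlapped those of Ppib on the opposite strand by 825 nt, and Ppib had 9.39 TPM on average. No label or header says whether strand was used in counting, so the RNA of such neighbours cannot be told apart.

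Of the FERM-domain cargo adaptors, Snx27 and Snx17 were detected. Snx27, which links cargo to retromer through a PDZ domain, had 38.3, 40.7 and 43.4 TPM, and Snx17, which hands integrins and lipoprotein receptors to retriever, had 23.7, 31.3 and 23.7 TPM. Snx27 was the higher in every library. Over protein_coding transcripts alone the gap was wider, with 36.8 ± 2.3 TPM for Snx27 and 2.55 ± 0.96 TPM for Snx17 in the alignment-based tables and 40.8 ± 1.7 and 1.99 ± 0.37 TPM in the read-based ones. The PXA-domain genes were more unequal. Snx13 had 61.8 ± 7.6 TPM, Snx14, an endoplasmic reticulum protein, had 24.1, 22.9 and 23.0 TPM, Snx19 had 13.2 ± 0.8 TPM, and Snx25 had 2.64, 3.30 and 2.55 TPM. Their order was the same in each library. Of the remaining sorting nexins, Snx20, which binds the adhesion receptor PSGL-1, had 35.5 ± 4.3 TPM, the MIT-domain member Snx15 had 21.7 ± 2.1 TPM, and Snx21, the nearest relative of Snx20, had 12.2 ± 1.7 TPM.

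Among the tethers of endosomes and lysosomes, all 7 measured HOPS and CORVET genes lay within a 3.3-fold range of mean TPM. Vps16, a core subunit, had 64.6, 51.9 and 66.1 TPM, and Vps41, specific to HOPS, had 60.8, 58.4 and 60.5 TPM. Vps41 was the highest of the 7 in replicate 2 and Vps16 in the other libraries. Vps39, the other HOPS-specific subunit, had 46.6 ± 4.2 TPM, and the core subunits Vps33a, Vps11 and Vps18 had 40.0 ± 2.6, 31.7 ± 1.6 and 18.3 ± 2.3 TPM. CORVET-specific Vps8 had 25.2 ± 1.2 TPM. In the read-based tables the same 7 genes ran from Vps18 at 14.4 TPM to Vps39 at 126.8 TPM. Both the range and the highest gene thus depended on the quantification. Vps33b, a Sec1/Munc18 protein that works with Vipas39, and Vps45, the early endosomal one, had 14.1 ± 1.4 and 12.3 ± 2.0 TPM, and these overlapped.

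The retrieval complexes showed one low alternative subunit. In retromer, the scaffold Vps35 had 40.6, 41.2 and 43.3 TPM, Vps29, which retromer shares with retriever, had 25.1, 24.5 and 27.9 TPM, and Vps26a had 24.3, 15.6 and 19.5 TPM. Vps26b, the alternative to Vps26a, had 6.62, 5.48 and 6.30 TPM, below Vps26a in every library. In retriever, Vps35l had 71.5, 71.6 and 74.8 TPM and Vps26c had 24.2, 26.7 and 29.8 TPM. The retriever scaffold Vps35l thus lay above the retromer scaffold Vps35 in every library.

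The Golgi and recycling tethers GARP and EARP share Vps51, Vps52 and Vps53, with Vps54 only in GARP and Vps50 only in EARP. Vps54 had 100.4, 90.3 and 71.0 TPM. Vps51 had 39.1, 40.3 and 40.8 TPM, Vps50 had 39.8 ± 2.5 TPM, and Vps53 had 27.3 ± 2.9 TPM. Vps54 stood above these 3 in every library, whereas the place of Vps52 in the order depended on the library.

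ESCRT genes of the family were low, apart from the ATPase gene Vps4b. The ESCRT-I subunit Vps28 had 11.3, 11.4 and 14.8 TPM, and of its alternative partners Vps37a had 10.1, 9.50 and 10.5 TPM and Vps37b 9.93, 6.81 and 8.48 TPM. Vps37c was low in replicate 2, with 11.1, 7.32 and 11.9 TPM. The ESCRT-II subunits Vps25 and Vps36 had 8.02 ± 1.49 TPM and, for Vps36, 3.66, 4.08 and 4.37 TPM. Vps4b, which disassembles ESCRT-III, had 81.1, 56.1 and 71.0 TPM, and its paralog Vps4a had 7.29, 6.52 and 8.73 TPM. No Vps4a value came near a Vps4b value.

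The Vps13 genes, which encode long proteins that move lipids between membranes, were all well represented. Vps13b had 79.3, 85.9 and 93.5 TPM, Vps13c had 66.9, 81.0 and 85.7 TPM, Vps13d had 64.9 ± 5.4 TPM, and Vps13a had 41.0 ± 1.5 TPM. Vps13b, Vps13c, Vps13d and Vps13a kept this order in each library. Vps72 carries the family name but encodes a subunit of chromatin remodelling complexes that handle the histone variant H2A.Z, and it had 27.6, 22.1 and 20.3 TPM.

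Ordered by mean TPM, most neighbours could not be separated. A gene was called separate from the next when its lowest library lay above the highest library of the next, and this held for 7 of 63 neighbouring pairs. The breaks came below Snx5, below Vps41 at rank 16, below Vps18 at rank 41, and below Vps26b, Vps36, Snx25 and Snx22 at the low end. Across the 63 genes with any count, mean TPM had a Spearman correlation of 0.32 with the genomic span of the gene and of -0.10 with its annotated transcript length, given as a description of points that share 3 libraries.

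Partner genes of the same complexes that do not carry a Vps or Snx name were likewise all present. All 42 listed partners reached 1 TPM. ESCRT-III genes ran from Chmp2b at 3.91 TPM to Ist1 at 63.0 TPM, and ESCRT-0 genes from Hgs at 9.43 TPM to Stam at 41.6 TPM. In the WASH complex, which builds actin on retromer domains, Washc3 had 15.3 TPM and Washc2 102.9 TPM. The retriever-associated COMMD and CCDC genes ran from Commd5 at 2.26 TPM to Commd3 at 60.3 TPM. Of the lipid kinase complex of Vps34, Pik3c3, the kinase itself, was lowest at 12.0 TPM and Uvrag highest at 82.4 TPM.

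To compare related genes or subunits of the same complex with less effect of library scaling, the ratio between the genes of 26 pairs was taken within each library. Because 1 is added to each TPM, scaling still affects the ratios of low genes. A pair was called when the ratio was at least 2-fold, as a log2 ratio of TPM + 1, in 1 direction in all 3 libraries. An exact sign-flip test over 3 libraries cannot give a two-sided p below 0.25, so no test is given. Of the 26 pairs, 11 were called, 9 of them among the 24 pairs in which both genes were detected. The other 2 called pairs set Vps37c and Snx17 against the undetected Vps37d and Snx31.

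Within the 9 pairs, the widest gap was between Snx13 and Snx25, with log2 ratios of 4.29, 3.70 and 4.12 in replicates 1, 2 and 3. This place depended on the quantification. In the read-based tables the mean ratio of Snx13 to Snx25 was 3.42, and that of Snx22 to Snx24, at -5.26, was the widest. Snx22 lay below Snx24, with log2 ratios of -3.92, -3.44 and -4.05. Vps4a lay below Vps4b, with log2 ratios of -3.31, -2.93 and -2.89. All 3 lay beyond 2-fold in every library by a wide margin. Snx5 lay above Snx32 by 2.90, 2.72 and 2.84 and above Snx6 by 2.40, 2.62 and 2.78. Snx7 lay below Snx30, with log2 ratios of -1.49, -2.12 and -1.69. Vps26a lay above Vps26b by 1.73, 1.36 and 1.49. Snx20 lay above Snx21 by 1.35 to 1.57 and Vps33a above Vps33b by 1.23 to 1.59. That all 9 pairs kept their direction in each library follows from the rule for a call.

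Pairs that were not called included the ESCPE-1 genes Snx1 and Snx2, whose log2 ratio of -0.74 ± 0.01 was of 1 sign and nearly constant but short of 2-fold. Vps35 and Vps35l were similar in this, at -0.78 ± 0.01. Vps51 against Vps54 reached 2-fold in replicates 1 and 2, with -1.34 and -1.15, and not in replicate 3, with -0.78. Snx10 and Snx11 changed sign between libraries, with 0.29, -0.25 and -0.15, and so did Snx9 and Snx18, with 0.18, 0.27 and -0.21. The read-based quantification called 15 pairs, the 11 among them. When only protein_coding transcripts were summed, 13 pairs were called in the alignment-based tables, and 9 pairs were called in all 4 versions. These 9 are not the 9 pairs of detected genes above. They include Vps37c/Vps37d and Snx17/Snx31, each with an undetected gene, and leave out Snx20/Snx21 and Vps33a/Vps33b.

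**Figure D2:**
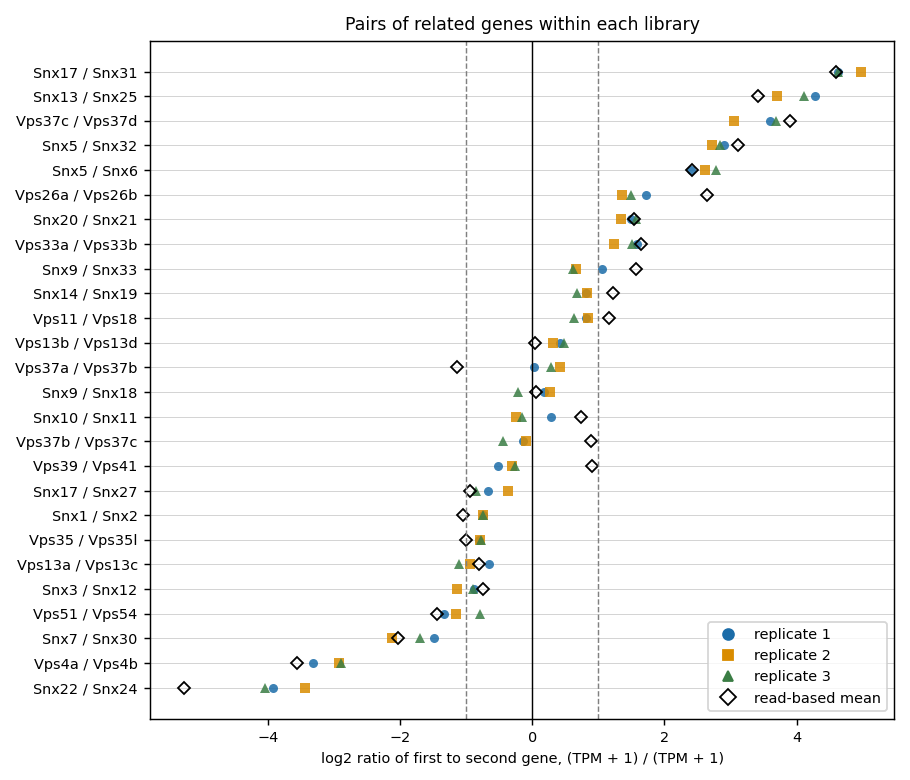
Log2 ratio of TPM + 1 between the genes of 26 related pairs, with 1 filled point per library, the read-based mean as an open diamond, a solid line at 0 and dashed lines at a 2-fold difference. The 11 called pairs have all 3 filled points beyond a dashed line on 1 side. By the filled points, Snx13 over Snx25 and Snx24 over Snx22 are the widest gaps between detected genes.

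The spread between libraries was small for most of the family. Over the 62 detected genes, the median SD of the level (log2(TPM + 1)) was 0.14, against 0.16 for the 11755 protein-coding genes with a mean of at least 10 expected counts. With replicate 1, 2 or 3 left out, the median SD over the remaining libraries was 0.089, 0.128 and 0.110. The background was not computed in this way, so these values cannot be set against 0.16. The most even genes with at least 10 TPM were Snx11, Vps41, Vps51, Vps35l and Snx14, with SDs of 0.03 to 0.04. The least even were Vps52, with 0.93, then Vps37c, Snx7, Vps26a and Snx18, with 0.27 to 0.34.

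Only 1 member had a library at least 2-fold above or below both others, against 0.876% of the 11755 genes. Vps52 (chr17:33955812-33967035, plus strand) had 24.9, 30.2 and 84.5 TPM, high in replicate 3. Its expected counts were 586, 763 and 1145 in libraries of increasing depth, and the read-based tables gave 76.8, 61.5 and 58.7 TPM, lowest in replicate 3. The excess lay in 1 short isoform. Vps52-207 is a processed transcript of 135 nt with exons at chr17:33961748-33961768 and chr17:33962027-33962140, and its sequence is shown, with the first exon in capitals, because 2 expected counts on it made up 54.8 of the 84.5 TPM of replicate 3.

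Vps52-207: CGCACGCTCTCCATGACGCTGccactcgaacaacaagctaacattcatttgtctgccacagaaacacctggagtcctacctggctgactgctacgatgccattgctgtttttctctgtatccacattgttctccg

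All 21 bases of the first exon and 74 of the 114 bases of the second lie within exons of Vps52-201, the long protein_coding isoform. The alignment-based tables listed Vps52-207 at an effective length of 3.20, 1.83 and 1.84 nt with 0, 0 and 2 expected counts, which became 0, 0 and 54.8 TPM. In the read-based tables it had 16, 10 and 10 estimated counts at effective lengths of 22.9, 23.0 and 23.5 nt. These became 36.3, 16.7 and 13.2 TPM, so the read-based order of the libraries for Vps52 also rests in part on this isoform. With transcripts under 200 nt left out, and with counts scaled by TMM or DESeq2 factors, no member had such a library. The quantifier's own interval for the Vps52 level, as deposited, ran from 21.4 to 92.2 TPM in replicate 1, from 26.0 to 125 TPM in replicate 2 and from 36.5 to 194 TPM in replicate 3, and these overlap.

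More members were highest in replicate 3 than in the other libraries. It was highest for 34 of 62 detected genes (54.8%), against 33.7% of detected protein-coding genes, replicate 1 for 20 against a background of 36.8%, and replicate 2 for 8 against 29.5%. The median deviation of replicate 3 from the mean of the other 2 libraries was 0.09 on the log2 scale. The summed level of the 26 markers of other cell types was also highest in replicate 3, at 10.7, 10.8 and 17.8 TPM. Cd4 alone made up 8.10, 6.30 and 13.5 TPM of these sums, so they mostly reflect 1 gene. The part of these markers in the result was not tested. The leading library depended on the scaling: with TPM rescaled over genes of at least 200 nt and without 3 rRNA-like genes, 31 members were highest in replicate 1 and 23 in replicate 3.

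Chromatin RNA holds transcripts that are still being made or spliced, so the TPM of each gene in the read-based tables was divided by the GENCODE class of its isoforms. Over the 62 detected genes, protein_coding isoforms held a median of 35.3 ± 1.5% of a gene's TPM (SD over libraries, n = 3), against 51.1 ± 0.5% over 13110 genes with a protein_coding transcript and at least 1 TPM. Isoforms annotated as retained_intron held a median of 29.9 ± 0.7%, against 15.4 ± 0.4%. At least 25% of TPM lay in retained_intron isoforms for 35 of the 62 members (56.5%), against 44.3% of all such genes. Where a gene has an annotated isoform of this class, the share was 35 of 46 members (76.1%) against 77.3%, which is near the background. Among those genes the median share was lower in the members, at 39.8 ± 0.9% against 45.5 ± 0.7%, and 32.6% of members against 43.8% of genes had at least 50% in this class. Reads of an annotated retained_intron isoform and of unspliced RNA cannot be told apart here, and any read that fits more than 1 isoform had to be assigned by the quantifier.

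Snx17 (chr5:31193227-31199143, plus strand) had the largest retained_intron share, at 84.6, 81.2 and 77.9%, with 5.90, 7.13 and 7.06% in protein_coding isoforms. The retained_intron isoform Snx17-210 had 5.79, 6.19 and 5.80 TPM, above the 0.57, 1.95 and 1.16 TPM of the protein_coding Snx17-201. The retriever gene Vps26c followed with 74.9, 76.7 and 75.9%, Snx6 with 77.0, 72.3 and 77.1%, and Snx4 with 77.1, 70.9 and 75.1%. Each of these 4 genes kept more than 70% in this class in every library of the read-based tables. In the alignment-based tables Snx17 had 82.6 ± 4.6%, Snx6 66.4 ± 1.3%, Vps26c 61.1 ± 2.7% and Snx4 59.1 ± 7.5%. Snx32 had 72.9 ± 2.0% there, against 46.2 ± 3.8% read-based, so sizes and order depended on the quantification. The shares that follow are read-based. Snx1 had 72.3 ± 0.6%, Vps16 70.0 ± 4.5%, Snx14 66.8 ± 2.3%, Snx20 between 62.9 and 65.2%, and Vps51 61.5 ± 0.7%. Vps28 had 67.0, 77.3 and 50.1%, the widest spread of the 35.

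Shares between 50 and 60% were found for Snx21, Snx25, Snx2, Vps13a and Vps33a, at 58.8 ± 1.5, 55.2 ± 8.1, 55.2 ± 1.5, 54.9 ± 4.0 and 52.8 ± 3.8%. The remaining 20 genes at or above 25% ran from Snx15 at 49.1 ± 0.6% to Vps33b at 26.7 ± 1.7%. They included the scaffolds Vps35 at 46.2 ± 3.1% and Vps35l at 45.4 ± 0.8%, both ATPases with Vps4a at 44.7 ± 3.4% and Vps4b at 39.3 ± 1.0%, and Snx32, Vps50, Vps39, Snx7, Vps13d, Snx8, Vps29, Vps52, Vps26b, Vps72, Vps41, Snx10, Snx13 and Vps18. Shares of at least 25% were thus found in retromer, retriever, the tethers, the ESCRT ATPases and the sorting nexins. Among genes with an annotated isoform of this class they were about as frequent elsewhere, at 76.1% of members against 77.3% of genes.

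Isoforms annotated for nonsense-mediated decay, which carry a premature stop, held at least 25% of TPM in 4 members (6.45%), against 5.58% of genes. They were Vps11 at 57.5, 57.4 and 58.1%, Vps33b at 43.4 ± 7.5%, Vps25 at 30.6 ± 4.4% and Vps13c at 26.1 ± 1.0%. In the alignment-based tables Vps11, at 65.0 ± 1.5%, and Vps33b, at 33.7 ± 5.4%, also passed 25%, whereas Vps13c had 12.2 ± 2.8% and Vps25 had 0%. Processed_transcript isoforms held at least 50% in 10 members (16.1%), against 10.5% of genes, and Snx5, Vps37b, Vps54 and Snx24 had the largest shares, at 88.4 ± 1.0, 84.8 ± 1.1, 74.2 ± 2.0 and 71.9 ± 2.2%. The alignment-based tables put 4 members past 50%, all among the 10: Snx5 at 77.9 ± 1.6%, Snx11 at 76.0 ± 1.5%, Vps54 at 62.4 ± 7.1% and Vps13b at 51.9 ± 1.2%. There Vps37b had 20.0 ± 10.3%, Snx24 38.8 ± 6.2% and Vps39 4.87 ± 4.14%, so both the count and the order depended on the quantification. At the other end, Vps37a, Vps37c, Snx16, Snx33, Snx3 and Snx22 had 100% in protein_coding isoforms. Of these genes only Snx22 has an annotated retained_intron isoform, so the others could hold no share in that class.

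**Figure D3:**
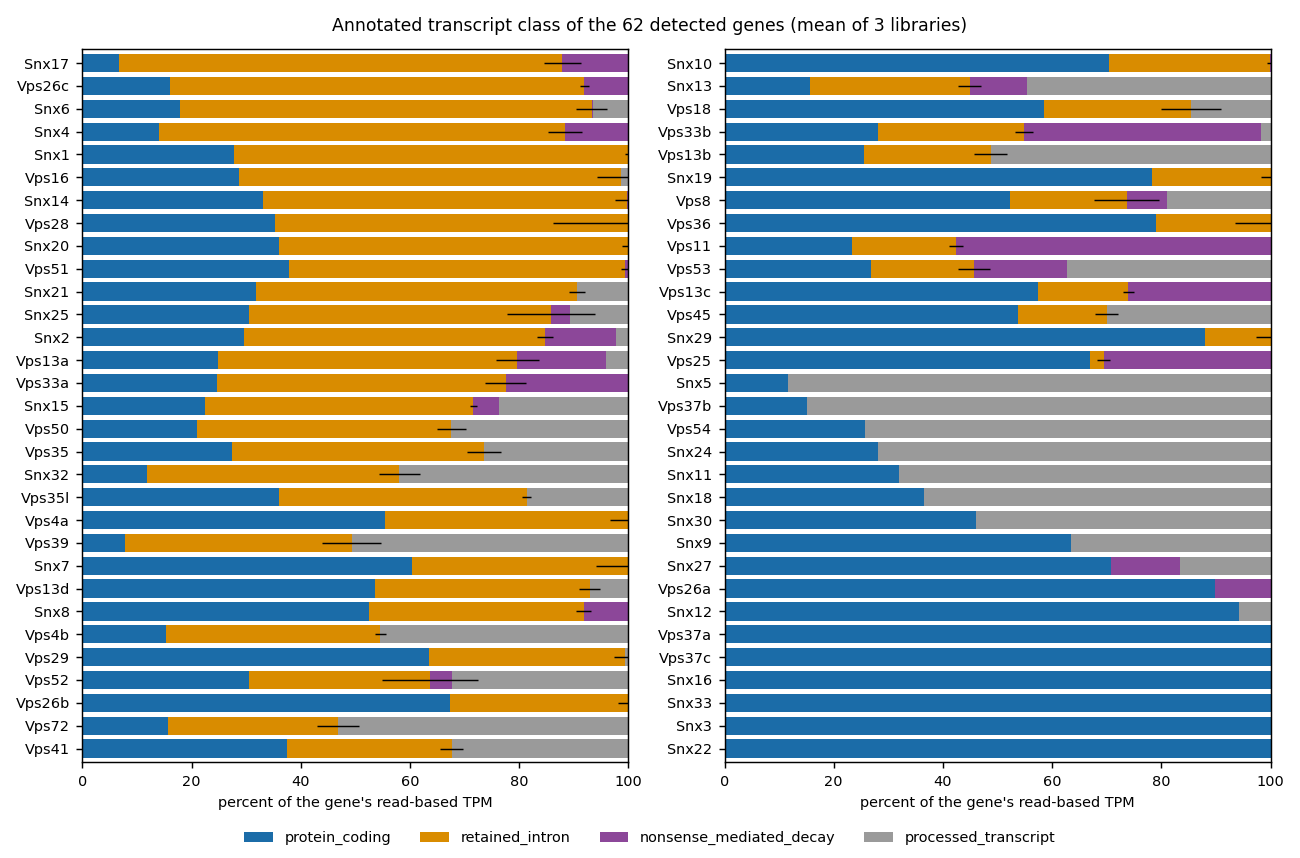
Share of each detected gene's read-based TPM by annotated transcript class, as the mean of 3 libraries, for 62 genes ordered by the retained_intron share; black lines give 1 SD of that share. Snx17 leads with 81.2% in retained_intron isoforms, and Snx5 has none in that class and 88.4% in processed transcripts.

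The class changed which members led. When only protein_coding isoforms of the alignment-based tables were summed, Snx29 came first with 97.5 ± 17.8 TPM, before Snx5 at 64.1 ± 7.2 and Snx2 at 57.4 ± 8.4 TPM. In the read-based tables Snx10 came first instead, with 89.2 ± 13.3 TPM against 33.8 ± 7.7 TPM and rank 8 in the alignment-based ones, before Snx29 at 85.3 ± 13.3 and Snx5 at 61.7 ± 4.7 TPM. In the alignment-based sums, Snx17 moved from rank 32 to rank 60, with 2.55 ± 0.96 TPM. In the alignment-based tables, levels over all transcripts and over protein_coding transcripts had a Spearman correlation of 0.86 over 63 genes that share libraries.

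In the GENCODE M21 annotation, introns that lie whole inside an exon of a retained_intron isoform were mostly short. Their number and length come from the annotation alone, so they do not show which introns were kept in these cells. The protein_coding transcripts of the 64 genes have 1127 distinct introns, and 42 of them (3.73%), in 22 genes, lie whole inside an exon of a retained_intron isoform, against 3.86% of 224369 introns of all protein-coding genes. Their median length was 208.5 nt, against 1784 nt for the other introns, and over all protein-coding genes the medians were 278 and 1527 nt. Of the 42, 17 (40.5%) were at most 150 nt long, against 73 of the other 1085 (6.73%). Snx17 and Vps39 each had 5 such introns, and Snx32, Vps16 and Vps28 each had 4. All 42 began with GT and ended with AG. Such introns were found in 22 of the 47 genes with a retained_intron isoform, and Vps26c, Snx4, Snx14 and Snx2, all with high shares in this class, had none, so these lengths do not describe the isoforms of those genes.

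The shortest such intron of each of 4 genes is shown 5′ to 3′ from GENCODE M21 transcripts (mm10), to let the whole held intron be read, with the GT at its start and the AG at its end in capitals. They lie at chr19:5495983-5496057 on the minus strand (Snx32, 75 nt), chr5:31198278-31198357 on the plus strand (Snx17, 80 nt), chr2:130438226-130438306 on the plus strand (Vps16, 81 nt) and chr19:6068943-6069025 on the minus strand (Vps51, 83 nt).

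Snx32: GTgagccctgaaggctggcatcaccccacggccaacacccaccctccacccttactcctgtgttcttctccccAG

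Snx17: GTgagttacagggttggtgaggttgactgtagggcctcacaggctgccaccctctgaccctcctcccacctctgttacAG

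Vps16: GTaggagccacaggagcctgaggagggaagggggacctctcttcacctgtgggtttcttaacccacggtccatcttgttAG

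Vps51: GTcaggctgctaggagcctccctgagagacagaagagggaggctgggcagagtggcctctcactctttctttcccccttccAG

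Their GC contents were 62.7, 58.8, 56.8 and 60.2%, against a median of 52.7% over the 42 held introns. The isoforms that hold them had mean read-based levels of 5.02 TPM (Snx32-202), 5.93 TPM (Snx17-210), 7.64 TPM (Vps16-203) and 4.31 TPM (Vps51-204). Longer held introns also occurred, up to 4078 nt in Snx20.

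**Figure D4:**
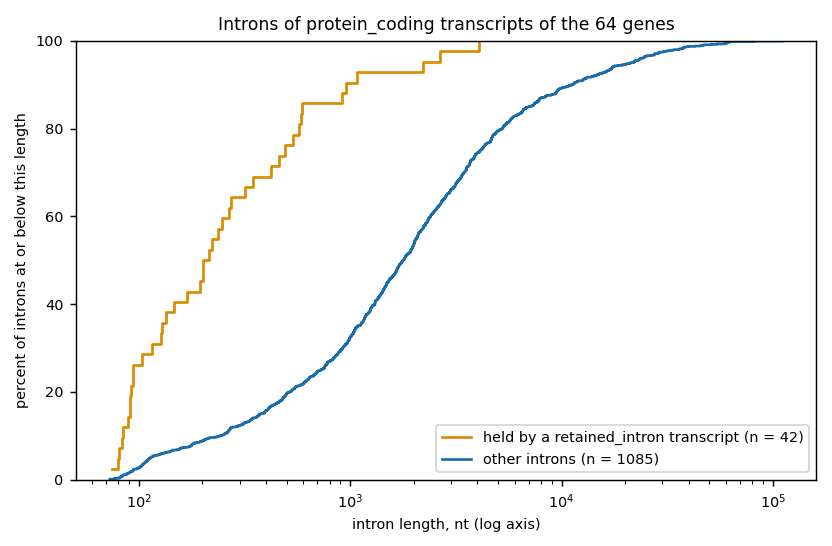
Cumulative share of annotated introns of the 64 genes' protein_coding transcripts, by length in nt on a log axis. The 42 introns held whole by an annotated retained_intron isoform are drawn beside the 1085 others. The curve of the held introns lies to the left, with medians of 208.5 and 1784 nt.

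The read-based tables gave higher levels for most members, as they did for most genes. The read-based minus alignment-based level (log2(TPM + 1)) had a median of 0.40 over 62 members and of 0.47 over 13212 protein-coding genes with at least 1 TPM in either table. It was at least 1 in every library for 6 members (9.68%), against 21.7% of those genes, and no member was lower by as much, against 0.0454%. The 6 were Vps37b with 1.69 ± 0.13, Vps39 with 1.43 ± 0.04, Snx25 with 1.37 ± 0.22, Snx24 with 1.28 ± 0.03, Snx6 with 1.06 ± 0.06 and Vps53 with 1.04 ± 0.03 (SD, n = 3). With both tables rescaled over protein-coding genes, Vps37b and Vps39 still passed and the other 4 did not.

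Vps39 had 119, 128 and 134 TPM in the read-based tables, Vps37b had 35.9, 25.7 and 26.4 TPM, and Snx24 had 98.1, 71.0 and 89.1 TPM. Snx6 had 106, 94.9 and 96.4 TPM there, Vps53 had 63.1, 54.1 and 54.0 TPM, and Snx25 had 8.61, 8.47 and 9.60 TPM. Each of the 6 lay above all of its alignment-based values. In 3 of these genes a single short processed transcript held most of the difference. Vps39-203, of 343 nt, had 38.2, 47.7 and 51.3 TPM in the read-based tables and 1.64, 3.99 and 0 TPM in the alignment-based ones. Vps37b-203, of 360 nt, had 22.1, 16.4 and 16.4 TPM against 2.28, 0.58 and 2.41 TPM, and Snx24-204, of 362 nt, had 39.0, 27.6 and 36.9 TPM against 0.57, 0 and 0 TPM. These isoforms were thus clearly present in one table and near 0 in the other, and they made up 54.6, 79.1 and 67.0% of the differences between the tables in Vps39, Vps37b and Snx24. The order of the members was similar in both tables, with a Spearman correlation of 0.94 over 63 genes that share libraries.

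**Figure D5:**
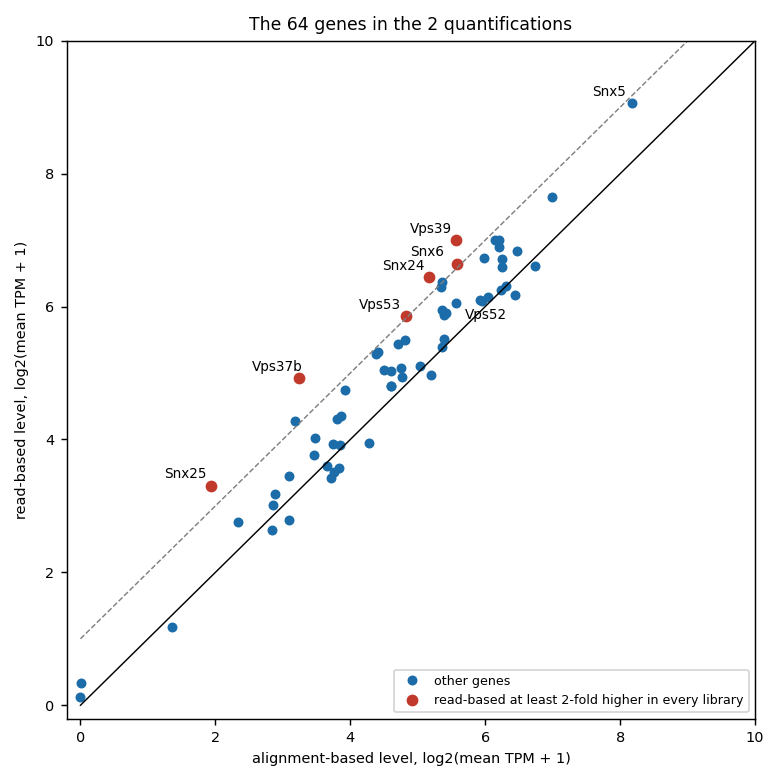
Mean level of the 64 genes in the read-based tables against the alignment-based tables, each as log2(mean TPM + 1), with a solid line at equality and a dashed line 1 log2 unit above it. The 6 genes in red were at least 2-fold higher in the read-based tables in every library; Vps37b and Vps39 lie farthest above the dashed line.

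Exons of 24 of the 64 genes overlapped exons of another annotated gene, on the opposite strand in 18. The share over all protein-coding genes was not computed, so these counts cannot be called high or low. For 4 of the 24 genes, Snx17, Snx21, Snx22 and Snx25, the neighbour (Zfp513, Acot8, Ppib and Cfap97) had the higher mean level. Rps18, opposite Vps52, had 29.5, 46.0 and 33.8 TPM, against 24.9, 30.2 and 84.5 TPM for Vps52. Cfl1, opposite Snx32, had a mean of 39.6 TPM, against 40.1 TPM for Snx32. The levels of all these members carry this uncertainty. Vps25 shares 1103 exon bases with Ramp2 on the same strand, and Ramp2 was listed at 0 TPM.

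Promoters of 43 of the 64 members were found in a RefSeq table (GRCm38.p6) that gives 250 bases before and 50 after each gene start. The motif CACGTG, the core site bound by the MiT/TFE regulators of lysosome genes and by other helix-loop-helix factors, reads the same on both strands. It occurred in 7 of the 43 windows (16.3%), against 8.11% of 16522 windows of protein-coding genes, and the 7 were Snx5, Snx8, Snx18, Vps16, Vps26a, Vps33a and Vps50. The longer TCACGTGA, which contains it, occurred in Vps16, Vps26a and Vps33a (6.98%, against 1.28%). The member windows were also richer in GC, with a median of 63.7% against 57.0%, and in CG steps, with a median of 24 against 14. Both motifs contain a CG step, and windows of like composition were not compared. A match describes these letters in these windows and does not show binding.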

How the data were processed

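Total RNA of the chromatin fraction was measured in 3 libraries of 1 group. The README files deposited with the tables name mm10 and GENCODE M21. The authors deposited, per the file headers, expected counts and TPM per gene and transcript from alignments to the transcriptome, with bounds of an interval for TPM whose level is not given, and estimated counts and TPM per transcript derived directly from the reads. The quantifiers and the use of strand are not given in the sources used here.

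Gene levels used log2(TPM + 1), which understates differences of low genes. Genes with a mean of at least 10 expected counts counted as detected. The members, pairs, lists and naming rule were chosen with earlier results of these data known. The rule asked for values in every library of the 8 highest and 5 lowest detected members, the 5 with the largest and the 5 with the smallest spread, and all called members and pairs; most of the 35 members with at least 25% in retained_intron isoforms are given as means and SDs instead, for brevity. Read-based TPM was summed per gene, and sequences came from GENCODE M21 transcripts. With 1 group, no test between conditions was possible. Rows that belong to no gene held 1.24, 0.482 and 0.228% of counts and stayed out of gene summaries. Expected counts were rounded for scaling with edgeR 4.0.16 (TMM) and DESeq2 1.42.0 under R 4.3.3, as alternatives only. Other steps used Python 3.11.15, numpy 2.4.6, pandas 2.3.3 and matplotlib 3.10.9 and were tested on simulated data. Replicates correlated at 0.98 to 0.99 over 11755 detected genes (Pearson, log2). Alternatives covered the quantification, scaling, pseudocount, filters and leaving out each replicate.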

Additional observations from a re-analysis of the deposited data

How the results depend on the processing

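The number of members at 1 TPM kept within 1.5 times its value under each alternative run, and so did the number of called pairs. The median level of 4.72 moved to 5.23 in the read-based tables, 5.60 with rescaled TPM, 4.67 with a pseudocount of 0.1, and 3.73 (alignment-based) or 3.79 (read-based) with protein_coding transcripts only; the last alternatives were chosen after seeing the data. The median SD over libraries lay between 0.0892 and 0.128 when 1 replicate was left out. The library deviation of Vps52 gave 1 call, and 0 calls in the read-based tables, with TMM or DESeq2 scaling, and with transcripts of at least 200 nt (added later). Members highest in replicate 1 numbered 31 with rescaled TPM, and those highest in replicate 2 numbered 17 with TMM and with DESeq2 scaling. The median retained_intron share was 30.7% in the alignment-based tables and 29.1% for genes with at least 10 TPM. Between the quantifications, 2 members were called when both were rescaled. Of 208 pair values under alternatives, 179 kept direction and call, 13 became called, 2 lost their call (Snx20/Snx21 and Vps33a/Vps33b with protein_coding transcripts, 1.06 and 1.42) and 14, in 8 uncalled pairs, changed sign. In the read-based tables these were Vps39/Vps41 at 0.90, Vps37a/Vps37b at -1.14, Vps37b/Vps37c at 0.89 and Snx10/Snx11 at 0.75. With alignment-based protein_coding transcripts they were Vps11/Vps18 at -0.88, Vps13b/Vps13d at -0.94, Snx10/Snx11 at 0.87 and Snx14/Snx19 at -0.21, and with read-based ones Vps11/Vps18 at -0.0944, Vps13b/Vps13d at -0.996 and Snx10/Snx11 at 1.85, which also became called. With 1 replicate left out, Snx10/Snx11 ranged from -0.199 to 0.0696 and Snx9/Snx18 from -0.0141 to 0.224. The cause was not tested. No paired analysis was possible because there was only 1 group. Low genes such as Snx22, with a mean of 56.1 expected counts, are limited by depth.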
